A study of Mus musculus with 8 samples.

Results

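The Notch pathway and the genes that mark arterial identity were followed here through the vessel cells of the mouse brain. Its 10 genes were taken by gene symbol from the 31053 gene IDs of the files: the receptors Notch1, Notch3 and Notch4, the ligands Dll4, Jag1 and Jag2, the target genes Hey1 and Hes1, the arterial ephrin ligand Efnb2 and its venous receptor Ephb4. The study made single-cell RNA libraries of the brain cortical plate of mice aged 8 weeks. The labels name 4 groups: Lama4-/-, a WT group kept as its control, Tek-cre:Lama5-/-, and a separate WT group for that line. Laminin alpha 4 and alpha 5, the products of Lama4 and Lama5, are the main laminin alpha chains of the endothelial basement membrane. Each group was 1 pool of 3 brains, given as 2 samples. The files of the Lama4-/- samples were identical and were counted as 1 library, which left 7 distinct libraries. Libraries of 1 group therefore shared their animals, and every p-value below measures only the spread between libraries of 1 pool. Tek-cre is a Cre recombinase driven by the promoter of Tek, a gene of the endothelial lineage. The labels name no Cre for the Lama4-/- mice.

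In the Notch pathway a membrane-bound ligand of the Delta-like or Jagged family on one cell binds a Notch receptor on its neighbour, the receptor is cleaved, and its intracellular part enters the nucleus, where it joins the DNA-binding protein Rbpj and switches on repressors of the Hes and Hey families. In blood vessels Dll4 and Notch1 set arterial fate and limit sprouting, endothelial Jag1 signals to Notch3 of smooth muscle cells and pericytes, and Notch3 is needed for mature arterial smooth muscle. Efnb2 is an arterial gene and Ephb4 a venous one, a split that keeps the vessel types apart.

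The coordinates below are those of GENCODE M21 on GRCm38. Notch1 lies on chromosome 2 at 26457903 to 26516663, Notch3 on chromosome 17 at 32120820 to 32166852, and Notch4 on chromosome 17 at 34564268 to 34588503. Dll4 lies on chromosome 2 at 119325784 to 119335962, Jag1 on chromosome 2 at 137081456 to 137116644, and Jag2 on chromosome 12 at 112907819 to 112929776. Hey1 lies on chromosome 3 at 8663359 to 8667256 and Hes1 on chromosome 16 at 30064384 to 30067796. Efnb2 lies on chromosome 8 at 8617434 to 8661242 and Ephb4 on chromosome 5 at 137350109 to 137378669. All 10 are protein-coding genes. Notch3 overlaps the antisense gene Gm17276, and the last exon of Ephb4 overlaps the end of Zan on the opposite strand. Whether strand was used in the counting is not given in the sources used here, so reads of these overlaps cannot be assigned with certainty.

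The DNA just before the transcription start was read for the members that RefSeq's promoter table (GRCm38.p6) holds, since Notch and its Hes and Hey targets act there. The table had 8 of the 10 members, without Hes1 and Hey1. Each window ran from 250 bases before to 50 bases after the start, and both strands were searched. The Rbpj site was searched as TGTGGGAA and CGTGGGAA, and the Hes and Hey sites as CACGCG and CACGTG. None of the 8 members held TGTGGGAA, which stood in 1.86% of the 32851 promoters of the table, or CGTGGGAA, which stood in 0.734%. None held CACGTG, against 7.15% of all promoters. The windows of Dll4, Jag1 and Jag2 held CACGCG, against 9.27% of all promoters. These are matches of letters and not measured sites. The ligand promoters with the match in the upstream part are shown first, with CACGCG or its reverse complement in capitals. The Dll4 stretch is chr2:119325534-119325783 (plus strand) and the Jag1 stretch chr2:137116671-137116770 (minus strand).
Dll4: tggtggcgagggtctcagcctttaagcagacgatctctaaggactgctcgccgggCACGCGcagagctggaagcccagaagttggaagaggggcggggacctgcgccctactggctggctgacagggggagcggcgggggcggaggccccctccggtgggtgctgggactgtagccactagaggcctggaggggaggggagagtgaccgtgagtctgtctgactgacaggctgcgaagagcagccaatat
Jag1: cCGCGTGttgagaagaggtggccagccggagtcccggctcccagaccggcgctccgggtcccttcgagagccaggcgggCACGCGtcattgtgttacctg
For comparison, the windows of Hey2, a Notch target that is read below in mural cells, and Lfng, a sugar transferase that modifies Notch receptors, both held CGTGGGAA. It is in capitals in the following stretches, as its reverse complement in Hey2, at chr10:30842944-30843003 (minus strand) and chr5:140607211-140607270 (plus strand). In Lfng the site overlaps a CACGTG match.
Hey2: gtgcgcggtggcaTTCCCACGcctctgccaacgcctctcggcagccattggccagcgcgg
Lfng: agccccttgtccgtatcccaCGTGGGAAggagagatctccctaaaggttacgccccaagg

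After filters on genes and mitochondrial UMIs and removal of 3015 called doublets, 47239 of 56961 barcodes were kept and clustered with the members and the related Notch and arterial genes left out of the variable genes. Of these, 26268 were endothelial-like by their markers: 5326 arterial-like, 16752 capillary-like, 3467 venous-like and 723 unnamed. There were 1599 pericyte-like and 2451 smooth muscle-like cells. Libraries held 35479306 to 48314458 UMIs in all. They shared 4 to 18 barcodes with one another. The arterial-like share of endothelial-like cells was 17.0 to 17.9% in the Lama4 experiment and 20.2 to 22.1% in the Lama5 experiment. These shares leave out an unnamed cluster of 203 cells led by Gkn3 and Lrrc32. Its leading genes also held the arterial markers Sema3g and Vegfc and the pericyte marker Rgs5. It had 85 and 69 cells in Tek-cre:Lama5-/- against 17 and 30 in its WT, and 2, 0 and 0 in the Lama4 experiment. It is in no class compared below. Most pericyte-like cells of the Lama4 experiment and of the Lama5 experiment lay in different clusters, led by Vtn and Atp13a5 and by Abcc9 and Rgs4. The targeted genes followed the labels in endothelial-like cells. Lama4 had 1 UMI in the Lama4-/- library against 916 and 798 in its WT. Lama5 was 48.1 and 46.6 CPM (UMIs scaled to a common total, as defined below) in WT and 25.3 and 28.7 in Tek-cre:Lama5-/-, below its WT but still present. In smooth muscle-like cells Lama5 was 156 and 143 CPM in WT and 151 and 165 CPM in Tek-cre:Lama5-/-. Below, Lama4 KO and Lama5 KO stand for the Lama4-/- and Tek-cre:Lama5-/- groups.

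The members were first read by zone and mural class, over the 7 libraries and without a test, since several of them were chosen as arterial genes. A level is in CPM, the UMIs of a gene scaled to a fixed total of its class, after TMM scaling (a correction for makeup) over all classes and libraries. Of the 10 members, 7 were higher in arterial-like than in capillary-like cells in 7 of 7 libraries, as were 25.3% of the 6949 genes read the same way: Notch1, Notch4, Dll4, Jag1, Jag2, Hey1 and Efnb2. For 5 of them (Notch4, Dll4, Jag2, Hey1 and Efnb2) the level also fell from capillary-like to venous-like cells in 7 of 7 libraries, against 5.41% of genes. Ephb4 was highest in venous-like cells in 7 of 7 libraries, as were 11.2% of genes. The exceptions were Notch3, a mural gene, and Hes1.

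The 3 receptors had 3 different patterns. Notch1, the main endothelial receptor, ran from 366 through 401 to 449 CPM (lowest, median and highest library) in arterial-like cells, with a mean of 403 ± 25.1 (SD, n = 7). It was 242 ± 10.1 CPM in capillary-like and 201 ± 26.6 in venous-like cells. It was 373 ± 21.1 CPM in pericyte-like cells, below arterial-like cells in 6 of 7 libraries, and 166 ± 42.9 in smooth muscle-like cells. The ranges of arterial-like and pericyte-like cells overlapped, and so did those of capillary-like, venous-like and smooth muscle-like neighbours in that order. Notch3, the receptor of mural cells, was a mural gene here too. It ran from 562 through 728 to 757 CPM in pericyte-like cells and from 489 through 703 to 808 CPM in smooth muscle-like cells, with overlapping ranges, and was 1.49 to 1.92 CPM on average in the endothelial zones. Notch4, a receptor known from endothelium, fell stepwise: 120 ± 35.8 CPM in arterial-like, 65.7 ± 19.6 in capillary-like and 47.7 ± 9.78 in venous-like cells, then 16.7 ± 7.45 in pericyte-like and 3.28 ± 1.90 in smooth muscle-like cells. The order of the zones held within each library, although their ranges over the libraries overlapped.

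The ligands were graded along the endothelium in different ways. Dll4 ran from 147 through 208 to 258 CPM in arterial-like cells, 84.2 through 111 to 125 in capillary-like cells and 23.2 through 31.2 to 40.5 in venous-like cells. The 5 classes did not overlap for Dll4, which was 3.26 ± 1.30 CPM in pericyte-like and 0.413 ± 0.449 in smooth muscle-like cells (5 UMIs in all). The arterial mean was 1.91 times the capillary mean and 6.67 times the venous mean. Jag2 was likewise endothelial, at 384 ± 67.5 CPM in arterial-like, 166 ± 22.2 in capillary-like and 112 ± 8.98 in venous-like cells, and at most 7.63 CPM in any mural library. Jag1, the ligand of smooth muscle differentiation, was the one ligand that mural cells also held. It ran from 163 through 170 to 196 CPM in smooth muscle-like cells, overlapping with 142 through 148 to 182 CPM in arterial-like cells. In pericyte-like cells it was 82.7 ± 4.08 CPM, above the 60.2 ± 8.29 of venous-like and 55.6 ± 3.83 of capillary-like cells, whose ranges overlapped with each other.

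The 2 target genes did not run in parallel. Hey1, a repressor tied to arterial fate, had the largest ratio of the arterial to the venous mean among the members, 28.6, and an arterial mean 2.81 times the capillary mean. It ran from 202 through 223 to 248 CPM in arterial-like cells, 71.5 through 78.3 to 90.5 in capillary-like cells and 3.28 through 7.74 to 13.3 in venous-like cells. Mural cells held little of it, 10.9 ± 8.91 CPM in pericyte-like and 9.64 ± 1.81 in smooth muscle-like cells. Hes1, a target shared by Notch and other signals, averaged 812 ± 487 CPM in capillary-like, 466 ± 196 in arterial-like and 569 ± 377 in venous-like cells, 345 ± 161 in pericyte-like and 612 ± 158 in smooth muscle-like cells. Its ranges overlapped between all neighbours, and the experiments stood apart. Capillary-like cells had 355 and 310 CPM in WT for Lama4 and 216 in Lama4 KO, but 1181 and 1194 in WT for Lama5 and 1206 and 1221 in Lama5 KO. The order of the classes turned with the experiment: in smooth muscle-like cells Hes1 was 524, 558 and 444 CPM in the 3 libraries of the Lama4 experiment, above their capillary-like cells, and 537 to 837 in those of the Lama5 experiment, below them. Within a library it was lower in arterial-like than in capillary-like cells in 6 of 7. Hes1 was also read outside the vessels, at 251 CPM on average in microglia-like and 114 in astrocyte-like cells.

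The ephrin pair ran in opposite directions. Efnb2 ran from 126 through 248 to 261 CPM in arterial-like cells, 48.5 through 77.9 to 88.8 in capillary-like cells and 7.49 through 14.7 to 20.9 in venous-like cells. Smooth muscle-like cells lay between, at 39.3 ± 6.74 CPM. Ephb4 was 71.3 ± 18.6 CPM in venous-like cells, 44.6 ± 8.38 in capillary-like and 40.6 ± 5.15 in arterial-like cells. The ranges of neighbouring zones overlapped over libraries. The arterial mean of Efnb2 was 13.9 times its venous mean, and that of Ephb4 was 0.569 times its venous mean.

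**Figure D1:**
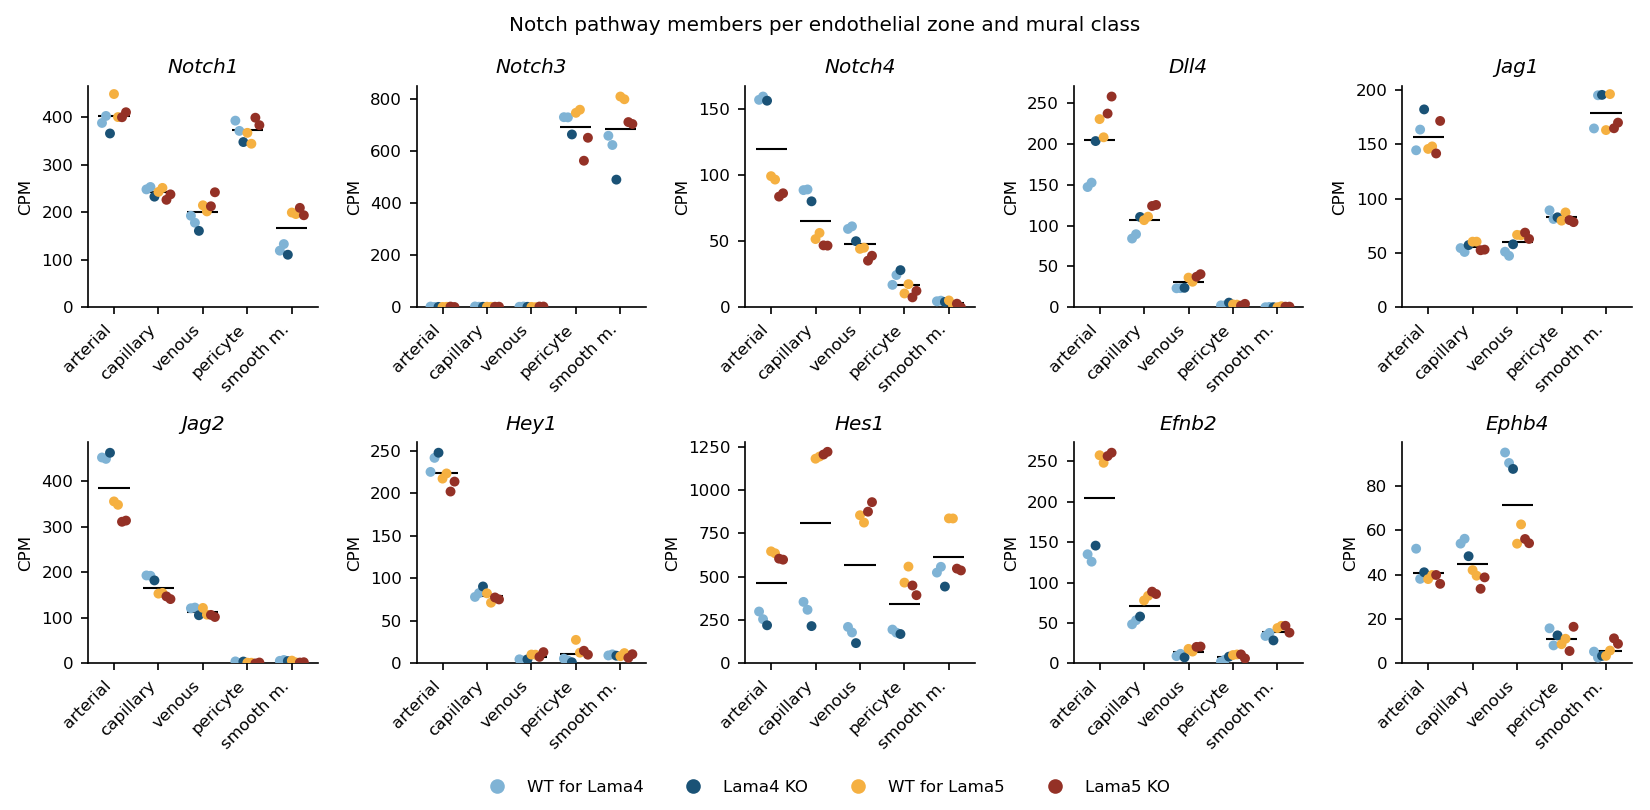
Level (CPM, TMM-scaled) of each of the 10 members in 5 vessel classes, with 1 point per library coloured by group and a line at the mean of the 7 libraries. Dll4, Jag2, Hey1 and Efnb2 step down from arterial-like to venous-like cells, Notch3 is seen in mural classes, and Hes1 separates by experiment.

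Sub-clusters of the endothelium showed that the gradients were not of 1 kind. Among the arterial-like sub-clusters were one led by Vegfc and Rad54b (2145 cells) and one led by Mgp, Cytl1 and Fbln5 (1018 cells). Dll4 was 268 CPM on average in the Mgp sub-cluster and 195 in the Vegfc sub-cluster, and Jag1 261 against 105. Hey1 was 248 and 228 CPM in these sub-clusters, and Efnb2 235 and 205. Another arterial-like sub-cluster, led by Nov and S100a6 (574 cells), had 75.4 CPM of Hey1, 134 of Efnb2 and 122 of Dll4. No test was made between sub-clusters. Among capillary-like cells, those led by Cxcl12 and Mfsd2a had 161 CPM of Hey1 and 130 of Efnb2, and those led by Slc26a10 had 97.7 and 115, while those led by Slc16a1 and Car4 had 45.1 and 35.8. Dll4 was 118, 97.4 and 103 CPM in the same sub-clusters. Hes1 was highest in the capillary-like sub-cluster led by Adm and Sertad1, at 1125 CPM, and lowest among capillary-like sub-clusters in the one led by 2900060B14Rik and histone genes, at 379 CPM. Hes1 stood among the leading genes of the Adm sub-cluster, although it was left out of the clustering. That sub-cluster held 741 to 815 cells of each library of the Lama5 experiment and 128 to 157 of each library of the Lama4 experiment.

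**Figure D2:**
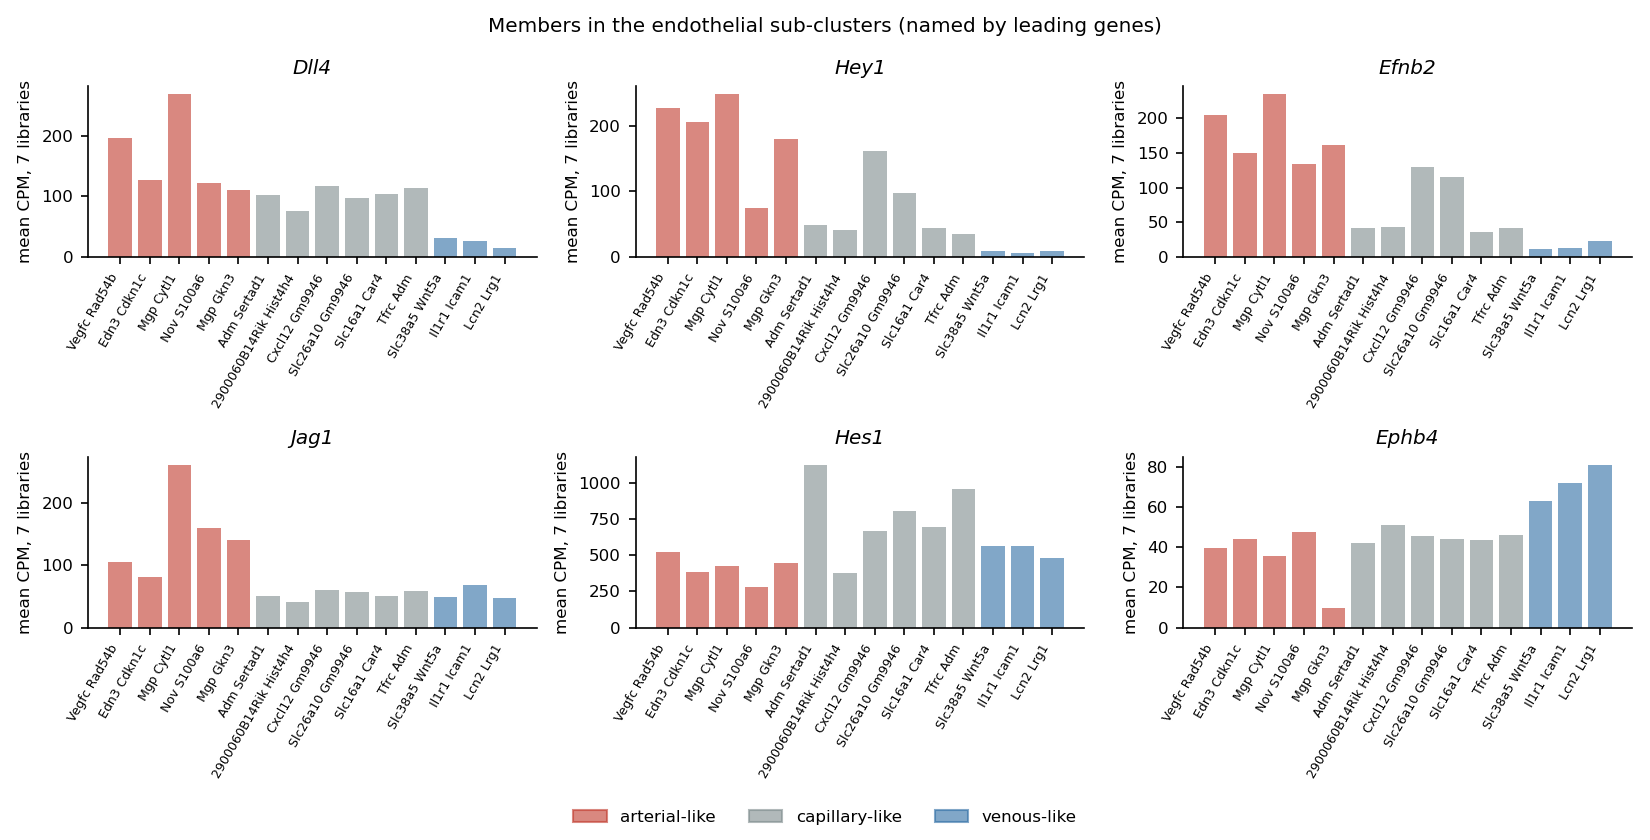
Mean level over the libraries of Dll4, Hey1, Efnb2, Jag1, Hes1 and Ephb4 in 14 endothelial sub-clusters, each named by its leading pair of genes and coloured by zone. Jag1 peaks in the sub-cluster led by Mgp and Cytl1 (261 CPM), and Hey1 and Efnb2 are higher in the capillary-like sub-cluster led by Cxcl12 than in that led by Slc16a1.

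The genes whose levels followed each member most closely were named by Pearson's r of log2(CPM + 5) over the 35 sums of class and library, among 8142 genes. The points share libraries and classes, so r is a description. Notch3 was followed by Ednra (0.999), Inpp4b (0.999) and Plce1 (0.998), and Jag2 by Eogt (0.991), Swap70 (0.989) and Sh3bgrl3 (0.988). Dll4 was followed by Crybg1 (0.974), Arhgef28 (0.970) and Tmeff1 (0.970), Notch4 by Smpdl3a (0.973), Lgals3bp (0.967) and Shisa5 (0.966), and Hey1 by Islr2 (0.965), Ccdc184 (0.952) and Rad54b (0.951). Ephb4 was followed by Foxp1 (0.966), H2-T23 (0.961) and Bnip3l (0.959), Jag1 by Timp2 (0.963), Olfml2a (0.948) and Wnt5b (0.946), and Notch1 by Tec (0.943), Fyn (0.936) and Cthrc1 (0.931). Efnb2 was followed by Cdkn1c (0.936), Sestd1 (0.925) and Epas1 (0.924), an arterial gene of the wider lists. Hes1 was followed least closely, by Gm26669 (0.919), Ddx5 (0.912) and Ddit3 (0.909).

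Related genes placed the members in context. Mural cells held other targets than endothelium: Hey2 was 123 ± 28.4 CPM in pericyte-like and 160 ± 16.4 in smooth muscle-like cells and at most 7.82 in any endothelial library, and Heyl 184 ± 19.2 and 171 ± 23.2 CPM against at most 0.672. Hey1 thus had its high levels in the arterial endothelium, and Hey2 and Heyl theirs beside Notch3. Nrarp, a feedback inhibitor of Notch, was found in both, at 81.3 ± 4.70 CPM in arterial-like and 356 ± 75.4 in smooth muscle-like cells. Of the arterial genes beyond the members, the connexin Gja5 was 21.3 ± 5.59 CPM in arterial-like cells and had 4 and 3 UMIs over all libraries in capillary-like and venous-like cells. Igfbp3 was 336 ± 66.6 CPM in arterial-like cells and 25.4 and 16.4 on average in the other zones. Lfng ran the other way, from 16.3 ± 4.04 CPM in arterial-like to 44.6 ± 21.2 in venous-like cells.

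The WT groups of the 2 experiments were compared in endothelial-like cells to show how far pools differ without a knockout; experiment, pool and processing cannot be told apart. By edgeR's quasi-likelihood test, 8 of the 10 members passed, with 5 of them higher and 3 lower in the WT for Lama5, as did 54.6% of 13361 genes (28.4% higher and 26.2% lower). DESeq2 called 6 of the 10 and 34.3% of genes. Hes1 was higher in the WT for Lama5, at 889 and 893 CPM against 278 and 240, a log2 difference of 1.78 ± 0.051 (SE; adjusted p = 4.96e-11). Efnb2 (0.91), Dll4 (0.52), Jag1 (0.16) and Notch1 (0.10) were also higher there on the log2 scale, and Notch4 (-0.62), Ephb4 (-0.50) and Jag2 (-0.26) lower. Of 12 immediate early and stress genes, 10 were higher and 2 lower in the same comparison, with a median log2 difference of 1.45; their part in these values was not tested. Each knockout was therefore compared with its own WT only.

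In the endothelial-like cells of the Lama5 KO, edgeR called the ligand Dll4 higher and the ligand Jag2 and the receptor Notch4 lower, all by small amounts. By edgeR, 3 of the 10 members passed an adjusted p of 0.05 (1 higher and 2 lower), against 19.7% of 13246 genes (10.9% higher and 8.75% lower), a share that sets 3 of 10 near the background. Dll4 was 108 and 100 CPM in WT and 114 and 121 in KO (CPM scaled within this comparison). The groups did not overlap, and the log2 fold change was 0.17 ± 0.038 (SE; adjusted p = 0.000712). Notch4 was 55.1 and 55.5 CPM in WT and 46.7 and 48.4 in KO, a log2 fold change of -0.22 ± 0.047 (edgeR adjusted p = 0.000577). Jag2 was 176 and 167 CPM in WT and 157 and 155 in KO, a log2 fold change of -0.14 ± 0.031 (edgeR adjusted p = 0.00087). For both, each KO library lay below each WT library. Hes1, the most abundant member by UMIs, was 834 and 835 CPM in WT and 844 and 859 in KO (0.03 ± 0.019, edgeR adjusted p = 0.334), and Hey1 89.7 and 81.8 against 79.5 and 83.8 (-0.07 ± 0.042, edgeR adjusted p = 0.248). Efnb2 (0.06 ± 0.037), Ephb4 (-0.09 ± 0.055), Notch1 (-0.04 ± 0.030) and Jag1 (-0.02 ± 0.043) did not pass either, nor did Notch3, which had 1.02 to 1.91 CPM there. DESeq2, which called 7.26% of genes, called none of the 10, with adjusted p of 0.0556 for Dll4, 0.0741 for Jag2 and 0.0791 for Notch4; with edgeR, Dll4 was lost without WT library 2 (log2 fold change 0.11, adjusted p = 0.0561), a fit in which Hey1 passed as lower (-0.14, adjusted p = 0.0337), and Jag2 without WT library 1 (-0.10, adjusted p = 0.0618). Beside these values, the summed arterial endothelial markers were 2208 and 2049 CPM in WT and 2419 and 2669 in KO, choroid plexus markers 58.1 and 58.9 against 166 and 163, and microglia markers 114 and 116 against 153 and 154; their part in the result was not tested.

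The rise of Dll4 was also read inside 2 of the 3 zones. In arterial-like cells, where 2 of 9 members tested passed against 6.90% of 10966 genes, Dll4 was 202 and 184 CPM in WT and 211 and 231 in KO (log2 fold change 0.19 ± 0.055, edgeR adjusted p = 0.0244). In the same cells Jag2 was 311 and 308 CPM in WT and 277 and 280 in KO (-0.15 ± 0.046, edgeR adjusted p = 0.0305). In capillary-like cells Dll4 alone passed, against 13.1% of 12023 genes, at 92.5 and 96.3 CPM in WT and 108 and 109 in KO (0.21 ± 0.050, edgeR adjusted p = 0.0017). In all these contrasts the KO libraries stood on one side of the WT libraries. In venous-like cells Dll4 was 32.2 and 27.7 CPM against 33.2 and 36.1 (0.21 ± 0.116, edgeR adjusted p = 0.31), with a wider error at that level. There Hes1 was 760 and 723 CPM in WT and 779 and 829 in KO (0.12 ± 0.035, edgeR adjusted p = 0.0236), and it and Notch3 were the 2 of 10 members that passed, against 9.89% of 11054 genes. Notch3 had 1.12 and 0.177 CPM in WT and 2.23 and 2.24 in KO there, too few UMIs to weigh. Jag1 in capillary-like cells was 52.4 and 52.4 CPM in WT and 45.8 and 46.3 in KO (-0.19 ± 0.070, edgeR adjusted p = 0.0672). DESeq2, which called 2.43% of genes in arterial-like, 4.12% in capillary-like and 2.99% in venous-like cells, called no member in any zone and gave no adjusted p for Notch3 in venous-like cells. With edgeR the arterial call of Dll4 was lost without WT library 2 (adjusted p = 0.363), KO library 1 (0.103) or KO library 2 (0.468), that of Jag2 without any 1 library (adjusted p = 0.0933 to 0.233), the capillary call of Dll4 without WT library 1 (0.0958), and the venous call of Hes1 without WT library 2 (0.422) or KO library 2 (0.287). In arterial-like cells Jag2 was called in 6 of 12 alternatives. Hes1 there was not called in the main fit (-0.07, edgeR adjusted p = 0.313) and was called as lower in 1 of 12 alternatives. Hes1 in venous-like cells was called in 3 of 12 alternatives. It was also lost with DESeq2 (adjusted p = 0.267), the replicate block (0.0944), no filter on low counts (0.0504), doublets kept (0.0862), the stricter cell filter (0.417), zones by marker score (0.399) and doubled clustering resolution (0.104). Other values moved in the same cells. In arterial-like cells the summed arterial markers were 6199 and 6317 CPM in WT and 7196 and 7942 in KO. In capillary-like cells choroid plexus markers were 59.5 and 62.9 CPM in WT and 212 and 206 in KO, and erythroid markers 453 and 525 against 126 and 135. Their part in the calls was not tested.

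Whether the knockout effect itself differed between zones was tested as an interaction with edgeR. No member passed for arterial-like against capillary-like cells, against 0.316% of 12011 genes, or for venous-like against capillary-like cells, against 0.320% of 11885 genes. For Dll4 the difference of log2 fold changes was -0.02 ± 0.074 (edgeR adjusted p = 0.981) between arterial-like and capillary-like cells and 0.00 ± 0.129 (edgeR adjusted p = 0.997) between venous-like and capillary-like cells. At an unadjusted p under 0.05 stood Jag1 (0.28 ± 0.096, adjusted p = 0.32) and Hes1 (-0.12 ± 0.041, adjusted p = 0.304) in the first, and Notch1 (0.20 ± 0.064, adjusted p = 0.267) and Notch3 (1.60 ± 0.746, adjusted p = 0.61) in the second. Of all genes tested, 829 of 12011 in the first and 903 of 11885 in the second stood there too. DESeq2 was not run for this design.

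**Figure D3:**
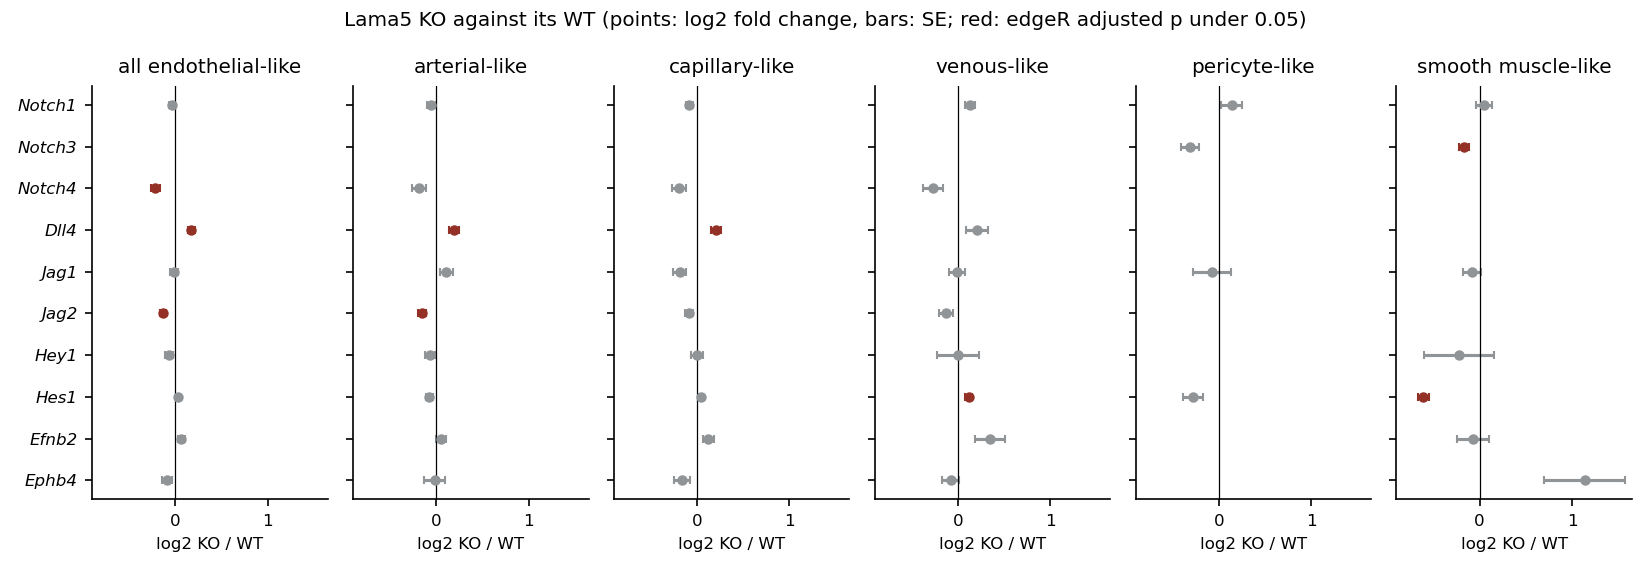
Log2 fold change of Lama5 KO over its WT with its SE (edgeR, 2 against 2 libraries) for the members tested in 6 cell classes, red where the adjusted p was under 0.05. Notch3 is left out of the endothelial panels, where it had at most 2.24 CPM; Dll4 lies to the right of 0 in all endothelial panels, and Hes1 lies near -0.61 in smooth muscle-like cells.

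The wider lists were read in the Lama5 KO endothelium against the 19.7% of all genes that passed there (10.9% higher and 8.75% lower). In every class they were read in the main edgeR fit only. DESeq2, which called 7.26% of genes in endothelial-like cells, and the other alternatives were not read for these lists. Of the 3 receptors and ligands beyond the members that could be tested, Dll1 rose (log2 fold change 0.37), and of 4 targets Nrarp rose (0.18). None of the 8 genes of the nuclear complex and none of the 5 sugar transferases passed; of 10 genes of receptor cleavage Psenen rose (0.09), and of 10 trafficking genes Dtx2 rose (0.31). Of the 10 arterial genes beyond the members, 3 rose (Gja4 0.20, Igfbp3 0.17 and Nrp1 0.12) and Sox18 fell (-0.20). Of 5 venous genes Nrp2 rose (0.35), and Emcn (-0.12) and Tek (-0.09) fell. Of 8 Eph and ephrin genes beyond Efnb2 and Ephb4, Epha2 (0.76) and Epha4 (0.17) rose and Efnb1 fell (-0.33). Epha2 and Efnb1 passed in the same direction in each of the 3 zones. In capillary-like cells Nrarp rose with Dll4 (0.29 ± 0.074, edgeR adjusted p = 0.00286) and Igfbp3 rose by 0.46 (edgeR adjusted p = 0.000204), and in venous-like cells Lfng fell by 0.45 (edgeR adjusted p = 0.0298). The median log2 fold change of the members was -0.03, against -0.0019 over all genes tested.

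Hes1 fell in the smooth muscle-like cells of the Lama5 KO, whose Lama5 level was given above. In smooth muscle-like cells 7 members could be tested and 2 passed, Hes1 and Notch3, both lower, against 6.02% of 9429 genes (4.65% higher and 1.38% lower). Hes1 was 743 and 737 CPM in WT and 485 and 486 in KO. The KO libraries lay far below both WT libraries, with a log2 fold change of -0.61 ± 0.056 (edgeR adjusted p = 3.11e-14). Hes1 passed in all 10 alternative fits, DESeq2 included (adjusted p = 1.12e-10, with 1.63% of genes called), with log2 fold changes of -0.63 to -0.59. Notch3 was 717 and 703 CPM in WT and 629 and 636 in KO, without overlap, a log2 fold change of -0.17 ± 0.055 just inside the threshold (edgeR adjusted p = 0.0499). Notch3 passed in 2 of the 10 alternatives, was not called by DESeq2 (adjusted p = 0.291), and was lost without any 1 library (adjusted p = 0.12 to 0.304). Jag1 was 145 and 173 CPM in WT and 146 and 154 in KO (-0.08 ± 0.095), and Notch1 177 and 173 against 185 and 175 (0.04 ± 0.087); neither passed. Ephb4, at 3.03 and 5.12 CPM in WT and 10.0 and 8.00 in KO, did not pass either (1.14 ± 0.440, edgeR adjusted p = 0.123). Hey2 and Heyl did not pass, as none of the 4 targets tested beyond the members did. Nrp1, of the arterial list, fell (-0.45).

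The change of Hes1 in smooth muscle-like cells differed from that in endothelial-like cells when the difference was tested: -0.64 ± 0.062 on the log2 scale (edgeR interaction, adjusted p = 4.74e-12), in a test that called 0.942% of 13265 genes and no other member. Pericyte-like cells were fewer, and edgeR called none of the 4 members tested there, against 0.629% of 6678 genes. Notch3 and Hes1 were at an unadjusted p under 0.05, as were 745 of the 6678 genes. Notch3 was 851 and 848 CPM in WT and 638 and 733 in KO (-0.31 ± 0.097, edgeR adjusted p = 0.169). Hes1 was 532 and 626 CPM in WT and 511 and 445 in KO (-0.28 ± 0.112, edgeR adjusted p = 0.319). For both, the KO libraries lay below the WT libraries. DESeq2 called none of the 4, and 0.0749% of genes. The difference of the Hes1 effect between smooth muscle-like and pericyte-like cells was -0.34 ± 0.139 (edgeR adjusted p = 0.659), in a test that called 0.116% of 9498 genes and no member. Hes1 was the one member there at an unadjusted p under 0.05, where 624 of the 9498 genes stood. Between pericyte-like and endothelial-like cells no member passed either, against 0.279% of 13282 genes. Hes1 (-0.31 ± 0.118, edgeR adjusted p = 0.536) and Notch3 (-0.91 ± 0.268, edgeR adjusted p = 0.261) were at an unadjusted p under 0.05, as were 789 of the 13282 genes. In the pericyte-like cluster that held most such cells of the Lama5 experiment, where 0.769% of 6245 genes passed, Notch3 was at -0.31 ± 0.088 (edgeR adjusted p = 0.104) and Hes1 at -0.30 ± 0.109 (edgeR adjusted p = 0.252). The smooth muscle-like cells were made of a larger cluster led by Tagln and Acta2 (2138 cells) and a smaller one led by Acta2 and Wtip (313 cells), with Rgs5 among its leading genes. In the larger cluster alone, where 5.64% of 9248 genes passed, the log2 fold change of Hes1 was -0.63 ± 0.057 (edgeR adjusted p = 2.23e-12) and that of Notch3 -0.16 ± 0.056 (edgeR adjusted p = 0.0763). In the smaller one, where 0.267% of 2251 genes passed, Hes1 had a log2 fold change of -0.20 ± 0.297 (edgeR adjusted p = 0.976).

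Other values were read beside the mural result, and not all of them moved. The median depth of smooth muscle-like cells was 5524.5 and 5124 UMIs in WT and 4436 and 4031.5 in KO. Summed smooth muscle markers were 32630 and 33049 CPM in WT and 33496 and 30456 in KO, and pericyte markers 12115 and 11862 against 11145 and 11522. Microglia markers were 99.0 and 93.5 CPM in WT and 168 and 168 in KO, and choroid plexus markers 15.4 and 10.5 against 118 and 116. Of the 12 immediate early and stress genes, 3 rose in smooth muscle-like cells, where 4.65% of all genes did (Nr4a1 0.34, Egr1 0.28 and Fosb 0.19 on the log2 scale), and 5 fell, where 1.38% of all genes did (Hspa1b -1.19, Hspa1a -0.86, Fos -0.40, Jun -0.25 and Dusp1 -0.17). The part of these values in the change of Hes1 was not tested.

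**Figure D4:**
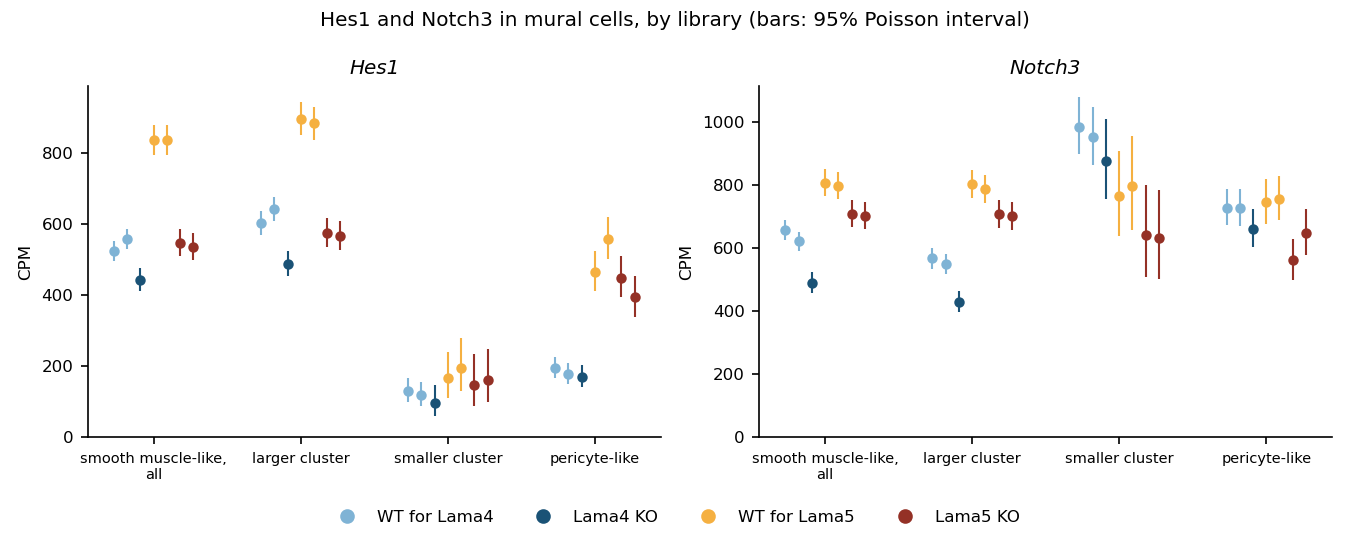
Level of Hes1 (left) and Notch3 (right) per library in all smooth muscle-like cells, their larger and smaller clusters, and pericyte-like cells (CPM with exact Poisson 95% intervals, counting error only). Both Lama5 KO libraries lie below both of their WT libraries for Hes1 in all smooth muscle-like cells (537 and 547 against 837 and 837 CPM on this scale), and the Lama4 KO library lies below its WT libraries for Notch3.

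The Lama4 KO gave 1 library, so it has no test. Its ratios to the summed WT libraries are given with exact 95% intervals (conditional binomial) that cover counting error only. The ratio between its WT libraries is given beside some of them.  As a measure of size, a ratio of 1.2-fold or more either way was used, chosen after the values were seen, for genes with at least 20 UMIs over the 3 libraries. In endothelial-like cells Dll4 was past it upward (11.3% of 13332 genes were) and Hes1 and Notch3 downward (12.8% were). Dll4 was 107 CPM in the KO against 78.5 and 85.0 in the WT, a ratio of 1.31 (1.23 to 1.39), while the WT libraries differed by a ratio of 0.923. Hes1 was 187 CPM in the KO against 292 and 252, a ratio of 0.685 (0.658 to 0.712), and its WT libraries differed by 1.16. In both, the KO library lay outside the pair of WT libraries. Notch3 had 24 UMIs in the KO (ratio 0.695, 0.420 to 1.11). Jag1 (1.15, 1.08 to 1.23), Efnb2 (1.14, 1.06 to 1.22) and Hey1 (1.10, 1.04 to 1.17) were slightly higher, Notch1 (0.921, 0.888 to 0.955), Notch4 (0.930, 0.875 to 0.988) and Ephb4 (0.900, 0.834 to 0.971) slightly lower, and Jag2 was at 0.979 (0.942 to 1.02). These ratios lay within the range of the WT-to-WT ratios of the members other than Notch3, from 0.892 for Hey1 to 1.16 for Hes1. That range is pooled over genes and does not give the spread of each gene. By library, the KO value of Efnb2 lay above both WT libraries, and those of Notch4, Jag2 and Ephb4 below both. The share of all genes outside both WT libraries was not taken in any class, so such a position has no background here. Choroid plexus markers summed to 1190 CPM in the KO against 247 and 171, and arterial endothelial markers to 3513 against 2704 and 3102; their part was not tested.

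By zone, the higher Dll4 of the Lama4 KO was read in arterial-like and capillary-like cells. It was 198 CPM against 143 and 148 in arterial-like cells (ratio 1.35, 1.24 to 1.48) and 108 against 82.4 and 87.3 in capillary-like cells (1.28, 1.17 to 1.39). In venous-like cells, with 108 UMIs in the KO, it was 23.0 against 22.2 and 22.7 (1.02, 0.808 to 1.29). In arterial-like and capillary-like cells 1 member was past 1.2-fold upward and 2 downward, where 13.8% and 14.7% of genes in arterial-like and 12.5% and 13.5% in capillary-like cells were. Hes1 was lower in every zone, with ratios of 0.792 (0.733 to 0.855) in arterial-like, 0.648 (0.613 to 0.685) in capillary-like and 0.599 (0.544 to 0.659) in venous-like cells. Venous-like cells had no member past 1.2-fold upward and 4 downward (13.9% and 14.4% of genes were): Hes1, Notch4 at 0.831 (0.711 to 0.969), and Notch3 and Efnb2, whose intervals held 1. Jag1 in arterial-like cells was 177 CPM against 141 and 159 (1.18, 1.08 to 1.29). Arterial markers in arterial-like cells summed to 11913 CPM against 9809 and 10307, and median depth was 6550 UMIs against 8149 and 9542. Choroid plexus markers were 937 against 189 and 136 CPM there, and 1460 against 245 and 186 in capillary-like cells. Of 12 immediate early and stress genes, 6 were lower and 1 higher by 1.2-fold in arterial-like cells. In capillary-like cells 2 were lower and 4 higher, and in venous-like cells 1 was lower. Their part was not tested.

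**Figure D5:**
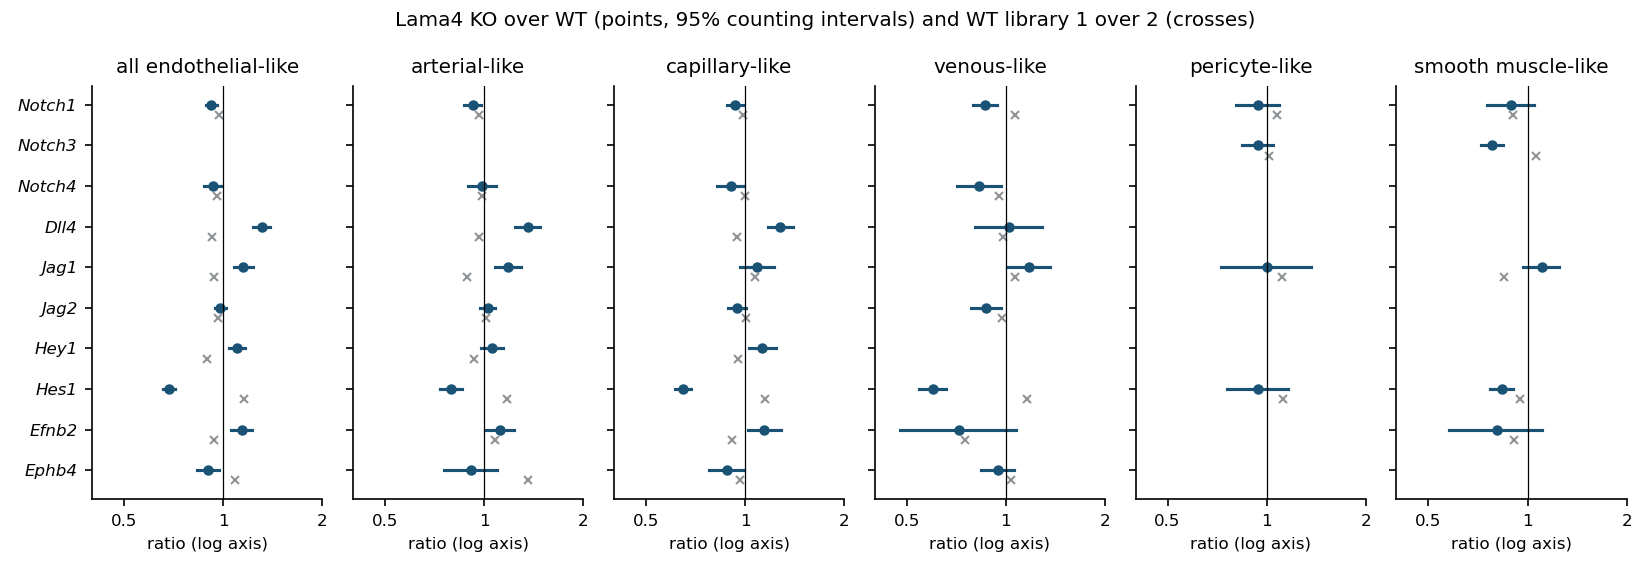
Ratio of the Lama4 KO library to its 2 WT libraries with 95% counting intervals (points and bars, log axis), and the ratio of WT library 1 to WT library 2 (crosses), for members with at least 100 UMIs over the 3 libraries in 6 classes. Dll4 lies above 1 and Hes1 below 1 in all, arterial-like and capillary-like endothelial cells; Notch3 is not drawn for endothelial classes.

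The related lists were read in the endothelial-like cells of the Lama4 KO too. Of all 13332 genes there, 11.3% were past 1.2-fold upward and 12.8% downward. An interval without 1 was found for 25.6% of them, and for 10.8% between the 2 WT libraries, so it is no rare mark. Of 3 receptors and ligands beyond the members, Notch2 (1.28, 1.03 to 1.57) and Dner were past 1.2-fold upward and Dll1 (0.798, 0.643 to 0.985) downward. Of 6 targets, Hey2 and Hes5 were past it upward and Heyl and Hes7 downward, with 4 to 47 UMIs each in the KO and intervals that held 1. Of 12 trafficking genes 4 were past it downward, of which Neurl3 had an interval without 1 (0.672, 0.462 to 0.959). Of 10 cleavage genes Aph1c was past it upward and of 9 Eph and ephrin genes Epha5 downward, with 18 and 3 UMIs in the KO. The nuclear complex (8 genes), the sugar transferases (5) and the venous genes (5) had no gene past it. Of 10 arterial genes Gja4, a connexin, was higher, at 66.0 CPM against 35.5 and 39.9 (ratio 1.76, 1.62 to 1.90), and Gja5 (0.784, 0.609 to 1.00) and Cxcr4 (0.743, 0.402 to 1.31) were lower, with few UMIs. Gja4 also passed upward in the Lama5 KO. Nrarp, which rose with Dll4 in the Lama5 KO, was at 1.04 (0.929 to 1.15).

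In the smooth muscle-like cells of the Lama4 KO, Notch3 was lower by more than 1.2-fold, and Hes1 was lower by just under that. Notch3 was 428 CPM in the KO against 567 and 533 in the WT, a ratio of 0.779 (0.722 to 0.841). Hes1 was 388 CPM against 453 and 478, a ratio of 0.834 (0.769 to 0.903). Both KO values lay below both WT libraries, a position whose share over all genes was not taken. Jag1 was 171 CPM against 142 and 167 (1.10, 0.971 to 1.25). Past 1.2-fold stood 3 of 9 members, all lower (20.9% of 10592 genes were lower by as much and 17.2% higher): Notch3, and Jag2 and Efnb2, which had 9 and 50 UMIs in the KO. The smaller smooth muscle-like cluster, in which Notch3 was higher in these 3 libraries, held 29 of 249 KO cells and 65 of 323 and 59 of 341 WT cells. Within the larger cluster Notch3 was 429 CPM in the KO against 568 and 551, and Hes1 487 against 604 and 644; within the smaller one Notch3 was 878 against 986 and 954 (levels on the scale of all classes). Smooth muscle markers summed to 53901 CPM in the KO against 47461 and 48195, pericyte markers to 5646 against 8815 and 7729, and choroid plexus markers to 1061 against 163 and 108; their part was not tested. Of 8 nuclear complex genes, 5 were past 1.2-fold downward in smooth muscle-like cells, among them Rbpj, the DNA-binding partner of Notch, at 0.759 (0.586 to 0.973); the median ratio of the list was 0.818, against 0.998 over all genes. In pericyte-like cells the ratio was 0.938 (0.842 to 1.04) for Notch3 and 0.939 (0.755 to 1.16) for Hes1, and of 6 members with enough UMIs only Notch4 was past 1.2-fold, upward, with 20 UMIs and an interval that held 1 (22.3% of 8987 genes were past it upward and 24.6% downward).

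The 2 knockouts share no control libraries, so their values can be set side by side. Dll4 lay on the same side of WT in both, in endothelial-like cells as a whole (log2 fold change 0.17 in the Lama5 KO and log2 ratio 0.39 in the Lama4 KO), in arterial-like cells (0.19 and 0.44) and in capillary-like cells (0.21 and 0.36). Notch4 was lower in both in endothelial-like cells (-0.22 and -0.10). Ephb4 (-0.09 and -0.15) was also lower in both there, and Efnb2 (0.06 and 0.18) higher. Jag2 was at -0.14 and -0.03 there, with a Lama4 KO interval that held 1, and at -0.15 and 0.03 in arterial-like cells. Efnb2 and Ephb4 did not pass in the Lama5 KO. The share of all genes that lay on the same side in both was not taken, so such agreement has no background here. In smooth muscle-like cells Notch3 (-0.17 and -0.36) and Hes1 (-0.61 and -0.26) were lower in both. In the endothelium Hes1 parted, with 0.03 in the Lama5 KO and -0.55 in the Lama4 KO, and so did Notch3, with few UMIs (0.59 and -0.53). None of the differences between the knockouts was tested, since the Lama4 KO has 1 library.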

How the data were processed

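Single-cell RNA libraries of mouse brain cortical plate were read as the raw UMI counts per gene and barcode that the authors deposited. Cell Ranger made them, per the file headers, and the submitters' processing notes name mm10 and Seurat 3.1. Whether strand was used is not given in the sources used here. Coordinates came from GENCODE M21 (99.6% of gene IDs matched).

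Barcodes with under 500 genes or 15% or more mitochondrial UMIs, and called doublets, were removed. Cells were clustered on 2000 variable genes, 30 components and 15 neighbours (igraph 0.11.9), without the members and related genes. Clusters were named from marker lists, so differences from other accounts may come from rebuilt names; 13.6% of endothelial-like cells lay within 0.1 of a zone score cut. UMIs were summed per library and class and fitted with edgeR 4.0.16 (TMM, quasi-likelihood, Benjamini-Hochberg over all genes tested, R 4.3.3). The fit was run on simulated data with larger changes than those of Dll4, Jag2 and Notch4 in endothelial-like cells. That run therefore does not tell how well changes as small as these are called. DESeq2 1.42.0, other scalings and filters, other clusterings and leaving out each library were alternatives. CPM are scaled over all classes for levels, within each comparison for tests and within each class for the Lama4 KO, so values differ slightly between them.

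The members and lists were chosen with earlier results of these data known. Named genes are the 10 members in every class, the genes of each related list that passed, up to 6 by smallest p, and the 3 genes most like each member. The list of 12 immediate early and stress genes, the tests between cell classes, the separate mural clusters and the 1.2-fold measure were added after seeing the data. The value of 1 gene of the related lists is not reported here.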

Additional observations from a re-analysis of the deposited data

Results flagged for a closer look

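For several members the libraries of the Lama5 KO lay on one side of their WT and the Lama4 KO library on the other side of its own. The values are the log2 fold change of the Lama5 KO and the log2 ratio of the Lama4 KO, and the difference between the knockouts was not tested. No share of all genes with such a split was taken. The counting interval of the Lama4 KO ratio left out 1 for Hes1 and held 1 for the other members listed here. Other members, Dll4 and Notch4 among them, lay on the same side in both knockouts in endothelial-like cells. Hes1 was at 0.03 and -0.55 in all endothelial-like cells, at 0.04 and -0.63 in capillary-like cells and at 0.12 and -0.74 in venous-like cells. Notch3, with few UMIs in endothelium, was at 0.59 and -0.53 in all endothelial-like cells, at 0.18 and -0.56 in capillary-like cells and at 1.78 and -0.49 in venous-like cells. Jag2 was at -0.15 and 0.03 in arterial-like cells, Jag1 at -0.19 and 0.12 in capillary-like cells, Efnb2 at 0.34 and -0.47 in venous-like cells, and Notch1 at 0.14 and -0.09 in pericyte-like cells. The effect of the Lama5 KO on Hes1 differed between smooth muscle-like and endothelial-like cells by -0.64 on the log2 scale, which was tested (edgeR interaction, adjusted p = 4.74e-12).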

How the results depend on the processing

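The counts of members past the threshold in the Lama5 KO depended on the fit. DESeq2 called 0 in all endothelial-like cells and in each zone, and 1, Hes1, in smooth muscle-like cells. Leaving out 1 library gave 0 to 1 in arterial-like, 0 to 1 in capillary-like and 0 to 2 in venous-like cells, and 1 in smooth muscle-like cells. In capillary-like cells the count was 2 with doublets kept, 4 with the stricter cell filter and 2 with zones by marker score. In the same fits 1178 of 11640, 1083 of 11555 and 1183 of 11609 genes passed. In venous-like cells the count of members was 0 without a filter on low counts, 1 with the stricter cell filter, 0 with zones by marker score and 0 at doubled clustering resolution. There 1018 of 17863, 1357 of 11323, 1196 of 11418 and 1070 of 11149 genes passed. In smooth muscle-like cells the count of members was 1 with RLE scaling (559 of 9429 genes passed) and 1 without a filter on low counts (65 of 16099). For the difference between zones the count of members was 1 with doublets kept (Jag1, 0.50, edgeR adjusted p = 0.0038) and 1 with the stricter cell filter (Hes1, -0.25, edgeR adjusted p = 0.00372). These calls were for arterial-like against capillary-like cells, where 57 of 11892 and 47 of 11679 genes passed. The causes were not tested. Replicate numbers did not pair the libraries (correlations of deviations from -0.0431 to 0.042). With a replicate block the count of members was 0 in venous-like, 1 in smooth muscle-like, 3 in all endothelial-like, 2 in arterial-like and 1 in capillary-like cells. In the same order 740 of 11054, 608 of 9429, 2714 of 13246, 864 of 10966 and 1365 of 12023 genes passed. Over all genes DESeq2 called 962 of 13246 in endothelial-like, 267 of 10966 in arterial-like, 495 of 12023 in capillary-like and 330 of 11054 in venous-like cells. It called 5 of 6678 in pericyte-like and 154 of 9429 in smooth muscle-like cells, and 4578 of 13361 between the WT groups. Without WT for Lama4 replicate 1, the ratio of Notch3 in arterial-like cells of the Lama4 KO turned from 0.73 to 1.37, at 5 UMIs in the KO. Values of single members and counts of all genes called were also read under the alternatives. Of these, 1294 kept their side of the threshold or stayed within the spread or near the main count. Some of the 1294 changed sign where no fit called them, such as Hey1 in venous-like cells of the Lama5 KO. A call was lost by 48 and gained by 15, while 36 moved and 1 reversed.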
